A study of Mus musculus with 40 samples.

Results

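The licensing genes described here are *Mcm2*, *Mcm3*, *Mcm4*, *Mcm5*, *Mcm6*, *Mcm7*, *Mcm10*, *Cdc6*, *Cdt1* and *Gins2*, 10 of the 26411 genes in the deposited count tables. They were picked by gene symbol with earlier results of these data in view, and which comparison drew attention to them is not recorded. The differences below therefore describe these 10 genes, and their adjusted p-values, which come from fits over all genes tested, are not independent evidence.

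RNA-sequencing was performed on whole E9.5 mouse embryos of 6 genotypes and on E14.5 fetal liver LSK cells of 4 genotypes, with 4 embryos or fetuses per genotype, 24 and 16 libraries in all. The genes mutated were *Kat6a* and *Kat6b*, which encode closely related histone acetyltransferases. Wild-type (WT) samples were compared with *Kat6a-/-* embryos (allele cfd in the labels), *Kat6b-/-* embryos (allele dec), *Kat6a E/E* samples (homozygous for G656E in the acetyltransferase domain of KAT6A), *Kat6b E/E* samples (homozygous for G577E in that of KAT6B) and double point mutant samples homozygous for both. The null embryos lack several exons of the targeted gene in every cell and have no LSK counterpart, and all lines are on a C57BL/6 background. The E9.5 embryos were matched for stage and were all male. LSK cells are lineage marker-negative, SCA-1-positive and c-KIT-positive cells, sorted by flow cytometry to enrich hematopoietic stem and progenitor cells. The comparisons set a point mutation in one protein, the other, or both against WT, and in the embryo also against complete loss of either gene.

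MCM2 to MCM7 form the ring-shaped core of the replicative DNA helicase. Before S phase, CDC6 and CDT1 help to load these rings onto replication origins in an inactive form, a step called licensing. In S phase, MCM10 and the GINS complex, of which GINS2 is a subunit, help to turn the loaded rings into active helicases. Transcription of many of these genes is known to peak around the start of S phase under E2F factors, so their RNA is high in tissues with many dividing cells, such as the early embryo and fetal liver.

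Libraries held 8401990 to 23339359 counts in embryos and 12270376 to 59216547 in LSK cells, and each licensing gene had between 540 and 41302 counts in every library. All 10 genes passed the filter on low counts in each fit. Levels are given as CPM, counts scaled to the library total, with one set of TMM factors over all 40 libraries. Differences are log2 fold changes from limma with their standard errors, and a gene is called where the adjusted p (FDR) is under 0.05. Percentage changes restate these model values, which can be larger or smaller than the ratio of the printed CPM. Whole-gene counts of the targeted genes do not test the deletions, since *Kat6a* was at 179 ± 8.91 CPM (SD, n = 4) in WT and 170 ± 5.78 in *Kat6a-/-* embryos, and *Kat6b* at 41.1 ± 2.57 in WT and 55.3 ± 2.52 in *Kat6b-/-* embryos.

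The promoter windows of 4 of the genes are shown because the genes in the results below differ in whether their windows hold the letters of E2F sites. Each window of 300 bases holds the annotated start and mostly the bases before it, 5′ to 3′ along the gene, and was taken from RefSeq (GRCm38.p6). Capitals mark TTCCCGC or TTGGCGC, on either strand. *Mcm5* and *Mcm7* are shown as genes called in a mutant whose windows hold such letters, *Mcm2* as one called in a mutant whose window holds none, and *Mcm6* as one that holds them and was called in no mutant embryo.
Mcm2 promoter window, chr6:88898731-88899030 (- strand): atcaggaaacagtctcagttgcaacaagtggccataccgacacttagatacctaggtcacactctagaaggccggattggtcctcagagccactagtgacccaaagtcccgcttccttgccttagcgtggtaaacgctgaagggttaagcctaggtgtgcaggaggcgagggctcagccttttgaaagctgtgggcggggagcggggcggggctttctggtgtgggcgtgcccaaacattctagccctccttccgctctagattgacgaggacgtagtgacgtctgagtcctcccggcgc
Mcm5 promoter window, chr8:75109259-75109558 (+ strand): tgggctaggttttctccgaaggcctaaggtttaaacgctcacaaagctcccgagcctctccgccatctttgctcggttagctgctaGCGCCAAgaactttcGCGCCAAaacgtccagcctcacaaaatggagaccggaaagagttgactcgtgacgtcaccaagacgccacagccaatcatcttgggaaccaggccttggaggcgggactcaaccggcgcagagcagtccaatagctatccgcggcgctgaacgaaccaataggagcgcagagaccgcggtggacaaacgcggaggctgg
Mcm6 promoter window, chr1:128359656-128359955 (- strand): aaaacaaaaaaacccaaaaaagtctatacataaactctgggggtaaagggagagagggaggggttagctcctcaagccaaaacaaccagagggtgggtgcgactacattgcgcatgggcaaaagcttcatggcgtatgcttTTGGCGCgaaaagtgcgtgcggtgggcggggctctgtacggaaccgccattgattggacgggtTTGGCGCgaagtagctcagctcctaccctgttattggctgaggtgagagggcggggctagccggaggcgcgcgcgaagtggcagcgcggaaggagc
Mcm7 promoter window, chr5:138171834-138172133 (- strand): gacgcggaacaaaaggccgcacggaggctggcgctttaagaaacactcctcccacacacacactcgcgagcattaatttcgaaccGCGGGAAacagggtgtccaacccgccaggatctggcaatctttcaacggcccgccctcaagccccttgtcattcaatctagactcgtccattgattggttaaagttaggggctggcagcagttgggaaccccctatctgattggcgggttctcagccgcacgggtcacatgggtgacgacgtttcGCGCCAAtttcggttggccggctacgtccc

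RefSeq windows were matched for 8 of the 10 genes, 9 windows in all because *Mcm7* has 2 starts. *Mcm4* and *Gins2* had no entry. At least one of TTCCCGC and TTGGCGC was present in 7 of the 9 windows and in 6.81% of all 32851 promoter windows of the same length. TTCCCGC alone was in 5 windows (4.6% of all windows) and TTGGCGC in 5 (2.45%). The letters CCAAT, those of the NF-Y site, were in 7 windows (37.41% of all), overlapping a TTGGCGC match where this reads on the other strand as GCGCCAAT. TTTGAA was in 1 window, that of *Mcm2* (17.89% of all). The windows of *Mcm2* and *Mcm10* held neither of the E2F letter strings.

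In WT embryos the helicase subunits stood above the loaders and activators when levels were divided by gene length. *Mcm7* led with a mean of 167 CPM per kb, followed by *Mcm5* at 149.8, *Mcm2* at 145 and *Mcm3* at 139.8 CPM per kb. *Mcm6* (106 CPM per kb) and *Mcm4* (104 CPM per kb) formed a lower pair of helicase subunits whose libraries overlapped, as did those of *Mcm5* and *Mcm2*. The loader *Cdt1* was at 72.3, *Gins2* at 58.9, *Mcm10* at 32.3 and the loader *Cdc6* at 19.8 CPM per kb, and no neighbours among these overlapped. The plot of wild-type levels shows both kinds of sample.

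**Figure D1:**
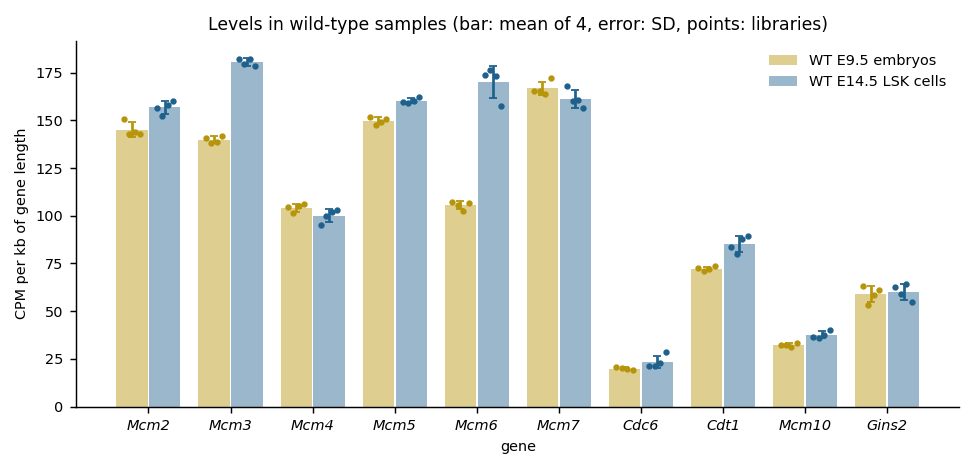
Level of each licensing gene in WT E9.5 embryos and WT E14.5 LSK cells, in CPM per kb of gene length. Bars are means of 4 libraries, error bars are SD and points are libraries. *Mcm6* stands at 106 CPM per kb in embryos and 170.2 in LSK cells, while *Mcm4* is at 104 and 100.1.

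WT LSK cells held more RNA of 7 of the 10 genes than WT embryos. *Mcm6* differed most, from 476, 467, 455 and 473 CPM in the 4 embryos to 769.5, 781, 768 and 698 CPM in the 4 LSK libraries, and the groups were far apart (log2 fold change 0.72, limma FDR 2.27e-07). *Mcm3* (0.43, limma FDR 1.42e-06), *Cdc6* (0.37, limma FDR 0.00533), *Cdt1* (0.32, limma FDR 0.000349), *Mcm10* (0.31, limma FDR 0.000394), *Mcm2* (0.18, limma FDR 0.00149) and *Mcm5* (0.16, limma FDR 0.00138) were also called higher, each without overlap between the groups. *Mcm4*, *Mcm7* and *Gins2* were not called. In this comparison 77.9% of all genes tested were called and 37.2% were called higher, and 34.7% were higher without overlap, so 7 of 10 is read against a large background. Stage, cell sorting, RNA input and sequencing cannot be told apart here.

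The ring holds its 6 subunits in equal numbers, but their RNAs did not keep the same proportions in both kinds of sample. Expressed as the level per kb over the mean of the 6 helicase subunits, *Mcm6* was between 0.7497 and 0.852 in all 24 embryos and between 0.983 and 1.14 in all 16 LSK libraries. *Mcm4* went the other way, at 0.756 ± 0.0235 (SD) over the 24 embryos and 0.665 ± 0.0345 over the 16 LSK libraries, with ranges that overlapped (0.705 to 0.8003 and 0.611 to 0.729). The order in LSK cells began with *Mcm3* at 181 CPM per kb, followed by *Mcm6*, *Mcm7*, *Mcm5* and *Mcm2* between 170.2 and 157 CPM per kb, each overlapping the next.

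*Kat6a-/-* embryos had lower RNA of 3 helicase subunits than WT embryos. *Mcm4*, *Mcm5* and *Mcm7* fell by 8.14% to 13.4%, and no other licensing gene was called. These calls come from a model with surrogate variables, estimated terms for variation not tied to genotype. Without them *Mcm4* was the 1 gene called by limma or edgeR, also with only the libraries compared, while *Mcm5* (log2 fold change -0.122, limma FDR 0.296) and *Mcm7* (-0.105, limma FDR 0.219) lost the call. The 3 called genes of 10 compare with 1.38% of all 14183 genes called lower (2.64% called in either direction). All 6 helicase subunits were lower at an unadjusted p under 0.05, which 8.85% of all genes were, and neither the loaders nor the activators reached it. Across the 10 genes the median log2 fold change was -0.07, across the 6 helicase subunits -0.10, and across all genes tested -0.0025. The embryos are whole, so fewer cells of a type and less RNA per cell cannot be told apart in this or any later comparison.

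*Mcm4* lies on chr16:15440211-15455264 (GRCm39, minus strand, 16 exons), head to head with *Prkdc* at a distance of 434 bases. Its level was 375, 364, 376 and 381 CPM in the 4 WT embryos and 334, 325, 324 and 332 CPM in the 4 *Kat6a-/-* embryos. Every *Kat6a-/-* embryo was below every WT embryo, and the gap between the groups was wider than the spread within either. The log2 fold change was -0.21 ± 0.0315 (SE, limma FDR 0.000707), a fall of 13.4%, which was the 11th smallest p of all genes. One *Kat6a-/-* embryo shared a litter with a WT embryo, and in that pair *Mcm4* was at 325 CPM in the mutant and 375 in the WT littermate (log2 ratio -0.205). Replicates 1 and 4 of *Kat6a-/-* were littermates of each other. *Mcm4* was called without each of the 8 libraries in turn and in each of the 12 other alternatives tried.

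*Mcm5* lies on chr8:75836140-75856231 (GRCm39, plus strand, 17 exons). It was at 522, 508, 513 and 519 CPM in WT and 506, 477, 457 and 477 CPM in *Kat6a-/-* embryos. The highest *Kat6a-/-* embryo was just under the lowest WT embryo. The log2 fold change was -0.16 ± 0.0316 (SE, limma FDR 0.0059), a fall of 10.7% by the model. The log2 ratio of mean CPM was smaller, at -0.104.

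*Mcm7* lies on chr5:138162844-138170684 (GRCm39, minus strand, 15 exons), head to head with *Ap4m1* at 447 bases. In the GENCODE gene models *Mcm7* overlaps the microRNA genes *Mir25* and *Mir93*. It shares 6.1% of its exon bases there with *Cops6* and 6.2% with *Ap4m1*, both on the opposite strand. Its level was 477, 477, 472 and 495 CPM in WT and 454, 458, 432 and 441 CPM in *Kat6a-/-* embryos, without overlap. The log2 fold change of -0.12 ± 0.0337 (SE, limma FDR 0.0482) was just inside the threshold. It lost the call without 7 of the 8 libraries in turn (adjusted p 0.0805 to 0.156), all but replicate 2 of *Kat6a-/-*, with the same direction throughout. Of 66-base stretches of its transcript, 59.3% had a near-identical copy elsewhere, mainly in the processed pseudogene *Gm5487*, so its count is uncertain where reads could have been placed on the copy.

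**Figure D2:**
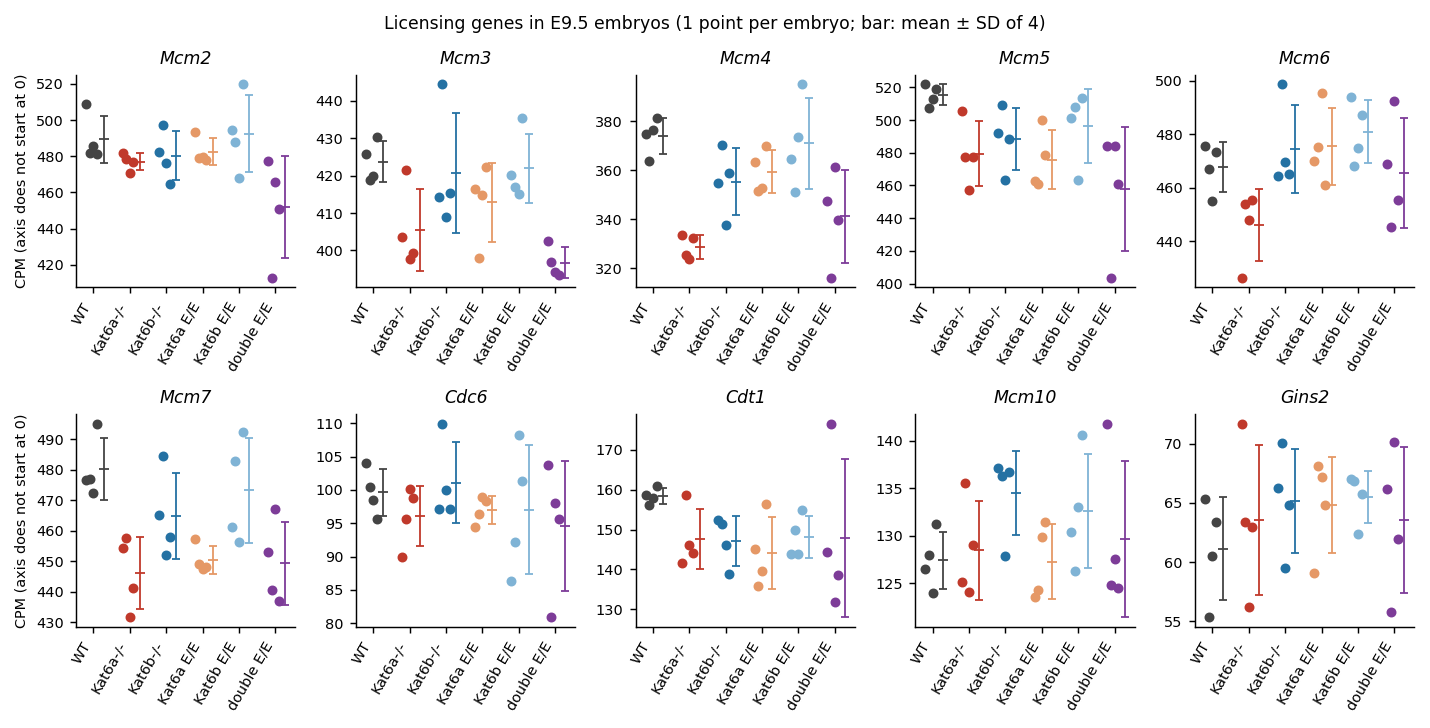
CPM of each licensing gene in every E9.5 embryo of the 6 genotypes, with mean ± SD of 4 beside the points. The axes do not start at 0. *Mcm4* in *Kat6a-/-* embryos (324 to 334 CPM) lies below all WT embryos (364 to 381 CPM), whereas *Mcm10* and *Gins2* overlap between all genotypes and WT.

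The other helicase subunits in *Kat6a-/-* embryos lay lower by less. *Mcm6* was at -0.08 ± 0.0331 (SE, limma FDR 0.181), with WT embryos from 455.0 to 476 CPM and *Kat6a-/-* embryos from 426 to 455.5 CPM. *Mcm2* was at -0.08 (limma FDR 0.211) and *Mcm3* at -0.07 (limma FDR 0.277), and the groups overlapped for all 3 of these genes. No overlap between the groups was seen for 3 of the 10 genes, the same 3 that were called, against 5.4% of all genes that were lower without overlap.

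The loaders and activators showed no call in *Kat6a-/-* embryos. *Cdt1* was at 159, 156, 158 and 161 CPM in WT and 142, 159, 146 and 144 CPM in *Kat6a-/-* embryos, so that 3 of the 4 mutants were below all WT embryos (log2 fold change -0.06, 95% interval -0.157 to 0.0383). *Cdc6* was at -0.05 (95% interval -0.17 to 0.0737), *Mcm10* at 0.0042 (-0.0861 to 0.0944) and *Gins2* at -0.01 (-0.136 to 0.113). *Cdc6* is less firmly measured, as copies covered 51.2% of its transcript. In the GENCODE gene models *Gins2* shares 67.3% of its exon bases with *Gse1* on the opposite strand. That overlap spans 2758 bases, but the counted *Gins2* length was 1038 bases, so the overlap of the counted exons is not known. Counts without strand information cannot separate any such overlap.

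Relative to the mean of the helicase subunit RNAs, *Mcm4* was lower in *Kat6a-/-* embryos, while the ratios of the other subunits overlapped between groups. Over the mean of the 6 subunits per kb, *Mcm4* was at 0.771 ± 0.0111 (SD, n = 4; 0.759 to 0.783) in WT and 0.721 ± 0.0114 (0.705 to 0.7303) in *Kat6a-/-* embryos, without overlap. The summed RNA of the 6 subunits was 2750.5 ± 36.6 CPM in WT and 2583 ± 38.3 CPM in *Kat6a-/-* embryos. These sums and ratios rest on the contrast already described and were not tested.

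Other genes of DNA replication showed few calls in *Kat6a-/-* embryos. Of 21 other genes for origin recognition and firing, such as the ORC subunits, *Cdc45* and *Gins1*, 0 were called, and 2 had an unadjusted p under 0.05 (16.9% of all genes did). The smallest p values there belonged to *Donson* (log2 fold change 0.15, limma FDR 0.179) and *Wdhd1* (-0.10, limma FDR 0.23). Of 28 genes of the replication fork, 0 were called and 7 were lower at an unadjusted p under 0.05, as were 8.85% of all genes. They were led by *Chaf1a* (-0.14, limma FDR 0.0917), a subunit of a chaperone that deposits histones on new DNA, and *Clspn* (-0.14, limma FDR 0.124), a checkpoint mediator. The median log2 fold change was -0.01 in the first list and -0.06 in the second, against -0.0025 over all genes.

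*Rrm2*, the small subunit of ribonucleotide reductase that supplies deoxynucleotides, was the 1 of 6 nucleotide supply genes called in *Kat6a-/-* embryos (-0.19, limma FDR 0.00528). None of 22 regulators of the G1 to S transition was called (3 at an unadjusted p under 0.05, against 16.9% of all genes), with *Ccnd1* at -0.15 (limma FDR 0.0624) and *Rbl1* at -0.16 (limma FDR 0.172). Of 18 mitosis genes 0 were called and 6 were lower at an unadjusted p under 0.05 (8.85% of all genes were), with *Tpx2* at -0.09 (limma FDR 0.14) and *Top2a* at -0.13 (limma FDR 0.189). With edgeR and DESeq2, each of which called *Ccnd1* and *Rrm2*, the origin, fork and mitosis lists likewise held 0 calls.

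Double point mutant embryos also had lower RNA of 3 helicase subunits than WT embryos, in this case *Mcm5*, *Mcm4* and *Mcm2*. The falls were 11.7%, 9.34% and 7.67%. All 3 calls were lost without surrogate variables by limma (FDR 0.174, 0.223 and 0.256) and by edgeR, and with only the libraries compared, while 6 genes were called with 6 surrogate variables. The log2 fold changes without surrogate variables were -0.185, -0.139 and -0.119. The number of all genes called moved with these settings too, and the shares below are from the main fit. The 3 called genes of 10 compare with 1.57% of all genes called lower, and 5 of 10 were lower without overlap between the groups against 3.74% of all genes. No double point mutant embryo shared a litter with a WT embryo, and replicates 1 and 3 of the double point mutant were littermates. Genotype and litter therefore cannot be told apart here. This comparison shares its WT embryos with that of *Kat6a-/-* embryos, so the calls of *Mcm4* and *Mcm5* in both are not independent. The median log2 fold change was -0.11 over the 10 genes and -0.00072 over all genes.

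*Mcm5* in double point mutant embryos was at 484, 404, 484 and 461 CPM, all below the WT range of 508 to 522 CPM (log2 fold change -0.18 ± 0.0321, SE, limma FDR 0.00498). *Mcm4* was at 348, 316, 361 and 339.5 CPM, again all below WT (-0.14 ± 0.0319, SE, limma FDR 0.016). *Mcm2*, which lies on chr6:88860452-88875762 (GRCm39, minus strand, 16 exons), was at 478, 413, 466 and 451 CPM against 509, 482, 485 and 481 CPM in WT (-0.12 ± 0.032, SE, limma FDR 0.0484). Replicate 2 of the double point mutant was the lowest embryo of all 24 for these 3 genes. Over all genes its counts also stood apart from those of its group, at a chi-square per degree of freedom of 21.94 to 31.7. The other pairs of that group were at 3.679 to 8.53. Without replicate 2, *Mcm5* was the 1 gene called, *Mcm4* had a log2 fold change of -0.131 (limma FDR 0.0513) and *Mcm2* of -0.099 (limma FDR 0.131). The count was also 1 without WT replicate 2 or WT replicate 3.

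*Mcm3* (log2 fold change -0.11, limma FDR 0.0642) and *Mcm7* (-0.11, limma FDR 0.09) missed the threshold although every double point mutant embryo was below every WT embryo. *Mcm6* differed from the other subunits, with 469, 445, 493 and 455 CPM in the double point mutant and a log2 fold change of 0.0026 (95% interval -0.0663 to 0.0716). *Cdt1* had a log2 fold change of -0.16 (limma FDR 0.0766), but its libraries were at 144, 177, 132 and 139 CPM, and replicate 2 was above all WT embryos. *Cdc6* (-0.03), *Mcm10* (0.02) and *Gins2* (0.06) were not called.

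**Figure D3:**
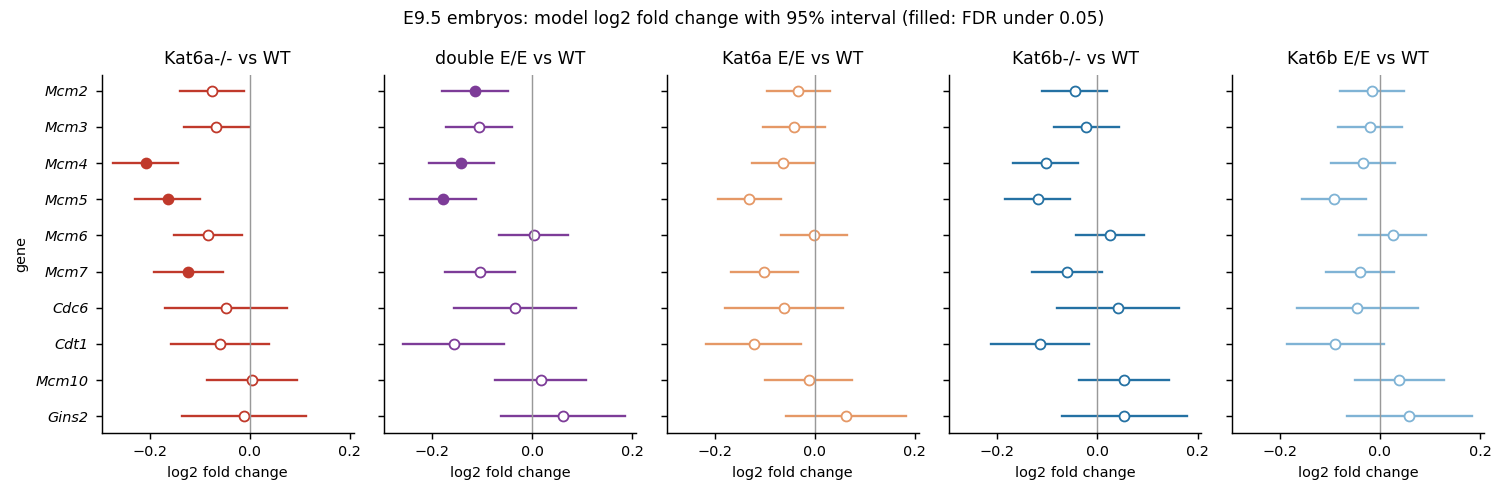
Model log2 fold change against WT of each licensing gene in the 5 mutant genotypes at E9.5, with 95% intervals. Filled points have a limma FDR under 0.05. Filled points are *Mcm4*, *Mcm5* and *Mcm7* in *Kat6a-/-* and *Mcm2*, *Mcm4* and *Mcm5* in double point mutant embryos.

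Of the same further lists in double point mutant embryos, the 21 origin genes held 0 calls (5 higher at an unadjusted p under 0.05, as were 8.91% of all genes), with *Donson* at 0.19 (limma FDR 0.0646) and *Orc4* at 0.14 (limma FDR 0.103). The 28 fork genes held 0 calls (6 at an unadjusted p under 0.05 in either direction, against 18.2% of all genes), with the sliding clamp gene *Pcna* at -0.12 (limma FDR 0.0627) and *Fen1*, which encodes a flap endonuclease, at -0.11 (limma FDR 0.108). *Rrm2* was again called lower (-0.19, limma FDR 0.00558). The mitosis list held 2 genes called lower, *Cdc20*, an activator of the anaphase-promoting complex (-0.20, limma FDR 0.00832), and the cyclin gene *Ccnb1* (-0.15, limma FDR 0.0361). The calls of *Rrm2*, *Cdc20* and *Ccnb1* depend on the model too. At the low end of the settings tried, no gene was called in this comparison (see the closing paragraph). The 22 regulators of the G1 to S transition held 0 calls (5 at an unadjusted p under 0.05), led by *Ccne2* (0.22, limma FDR 0.0534) and *E2f2* (-0.25, limma FDR 0.0793). The origin and G1 to S lists also held 0 calls with edgeR and DESeq2, while the fork list held 0 with edgeR and 1, *Pcna*, with DESeq2. Results of these tools for the nucleotide supply and mitosis lists are not given here.

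In single point mutant and *Kat6b-/-* embryos, 0 of the 10 genes were called by limma against WT. In *Kat6a E/E* embryos 4 genes were lower at an unadjusted p under 0.05 (5.75% of all genes). limma called 0.24% of all genes lower (0.275% in either direction). Of the 10 genes 0 were called by edgeR and 1 by DESeq2. The DESeq2 share of all genes is not given, so that call cannot be weighed. *Mcm5* was at 463, 461, 499.9 and 479 CPM, all below WT (log2 fold change -0.13, limma FDR 0.0598). *Mcm7* was also lower without overlap (-0.10, limma FDR 0.244), and these 2 genes compare with 1.93% of all genes lower without overlap. *Cdt1* was at -0.12 (limma FDR 0.343) and *Mcm4* at -0.06 (limma FDR 0.484).

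In *Kat6b-/-* embryos 3 genes were lower at an unadjusted p under 0.05 (6.49% of all genes), 0 were called by edgeR and 1 by DESeq2, and limma called 0.338% of all genes lower. These were *Mcm5* (log2 fold change -0.12, limma FDR 0.0822), *Mcm4* (-0.10, limma FDR 0.137) and *Cdt1* (-0.11, limma FDR 0.317). In the 1 *Kat6b-/-* embryo with a WT littermate the log2 ratio was -0.00947 for *Mcm5*, -0.0232 for *Mcm4* and -0.0602 for *Cdt1*, and the other 7 genes were higher in the mutant (0.0355 to 0.212). *Cdt1* was at 152, 151, 146 and 139 CPM, all below the WT range of 156 to 161 CPM, the 1 gene without overlap (3.46% of all genes were lower in that way). In *Kat6b E/E* embryos 1 gene was lower at an unadjusted p under 0.05 (2.76% of all genes), *Mcm5* (-0.09, limma FDR 0.998), and edgeR and DESeq2 called 0. limma called 0% of all genes in that comparison. *Kat6b E/E* embryos shared no litter with WT embryos, and replicates 1 and 2 were littermates. *Cdt1* was again lower without overlap, at 144, 150.0, 144 and 155 CPM (0.818% of all genes).

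Further lists held 1 call in each of 2 of these genotypes. In *Kat6a E/E* embryos *Pcna* fell by 0.16 on the log2 scale (limma FDR 0.0401), and in *Kat6b-/-* embryos *Cdc20* fell by 0.19 (limma FDR 0.0277).

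*Mcm4* set the *Kat6a* point mutant apart from the *Kat6a* null. Its level of 363, 351, 353 and 369.7 CPM in *Kat6a E/E* embryos was above that of every *Kat6a-/-* embryo (log2 fold change 0.14 ± 0.0327, SE, limma FDR 0.0222), a difference of 10.5%. It was the 1 licensing gene called in this comparison, against 0.973% of all genes called higher. *Mcm6* was likewise higher without overlap (0.08, limma FDR 0.233), so 2 of 10 genes were, against 4.41% of all genes. *Mcm5* (0.03, 95% interval -0.0345 to 0.1) and *Mcm7* (0.02, -0.0507 to 0.0929) were not called. The *Mcm4* call was lost without 5 of the 8 libraries in turn, namely replicates 2, 3 and 4 of *Kat6a-/-* and replicates 1 and 4 of *Kat6a E/E* (log2 fold change 0.124 to 0.144, limma FDR 0.0512 to 0.0872). It was also lost without surrogate variables by limma (0.134, FDR 0.211) and edgeR, and with only the libraries compared. *Kat6a E/E* and *Kat6a-/-* embryos shared no litter, so genotype and litter cannot be told apart in this comparison.

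*Kat6b E/E* and *Kat6b-/-* embryos did not differ by the test in any of the 10 genes, with 0 called by limma, edgeR and DESeq2 and 1 at an unadjusted p under 0.05, *Mcm4* (log2 fold change 0.07, limma FDR 0.545). Over all genes limma called 0.0353% there, and 8.83% had an unadjusted p under 0.05. Double point mutant embryos were compared with each related genotype, and 0 of 10 genes were called by limma, edgeR or DESeq2 against *Kat6a-/-* (1 at an unadjusted p under 0.05), *Kat6a E/E* (2) or *Kat6b E/E* (4). limma called 0.00705%, 0.141% and 0.0282% of all genes in these comparisons, and 10.4%, 9.89% and 12% had an unadjusted p under 0.05. *Mcm4* against *Kat6b E/E* was at -0.11 (95% interval -0.176 to -0.0408, limma FDR 0.177). The difference between the double point mutant effect and the sum of the single ones was called for 0 of 10 genes by limma, edgeR and DESeq2, with 0 at an unadjusted p under 0.05, and for 0% of all genes (6.42% at an unadjusted p under 0.05).

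LSK libraries fell into sets that differed in markers, and this is given before their results. All 8 markers of the sort gate averaged above 1 CPM, although *Ly6a*, which encodes SCA-1, was at 0.904 to 9.96 CPM. *Cd34* was under 500 CPM in 7 libraries, namely WT replicate 4, *Kat6a E/E* replicate 2, *Kat6b E/E* replicates 2 and 3 and double point mutant replicates 2, 3 and 4. Double point mutant replicates 2 to 4 also came from a single litter. In these 7 libraries *Cd34* was at 339 to 459 CPM and adult globin RNA at 3409 to 14000 CPM, and in the other 9 at 548 to 818 and 429 to 3759 CPM. The summed lineage markers, 11 of 14 above 1 CPM in LSK libraries, spanned 1065 to 4007 CPM in WT, 601 to 6637 in *Kat6a E/E*, 2025 to 5514 in *Kat6b E/E* and 1347 to 14800 in the double point mutant. Hepatocyte markers summed to 34.8 to 219 CPM and whole-embryo markers to 0.963 to 51.0 CPM.

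The 10 genes differed in how far their levels moved with this split. *Cdc6* was at 131 to 162 CPM in the 7 libraries low in *Cd34* and at 101 to 129 CPM in the other 9, without overlap. *Mcm2* was at 541 to 638 and 488 to 552 CPM, *Mcm7* at 451 to 571 and 418 to 483 CPM, and *Mcm4* at 371 to 451 and 336 to 388 CPM, with overlap. *Mcm5*, at 552 to 665 and 503 to 584 CPM, *Mcm3*, at 497 to 625 and 476 to 554 CPM, and *Cdt1*, at 187 to 232 and 157 to 197 CPM, overlapped too. For *Mcm6* (673 to 805 and 686 to 782 CPM), *Mcm10* (129 to 185 and 134 to 168 CPM) and *Gins2* (52.6 to 68.3 and 53.0 to 66.6 CPM) the range of the 7 held that of the 9. The part of this split in the results below was not tested beyond a fit without the 7 libraries, chosen after the data were seen.

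**Figure D4:**
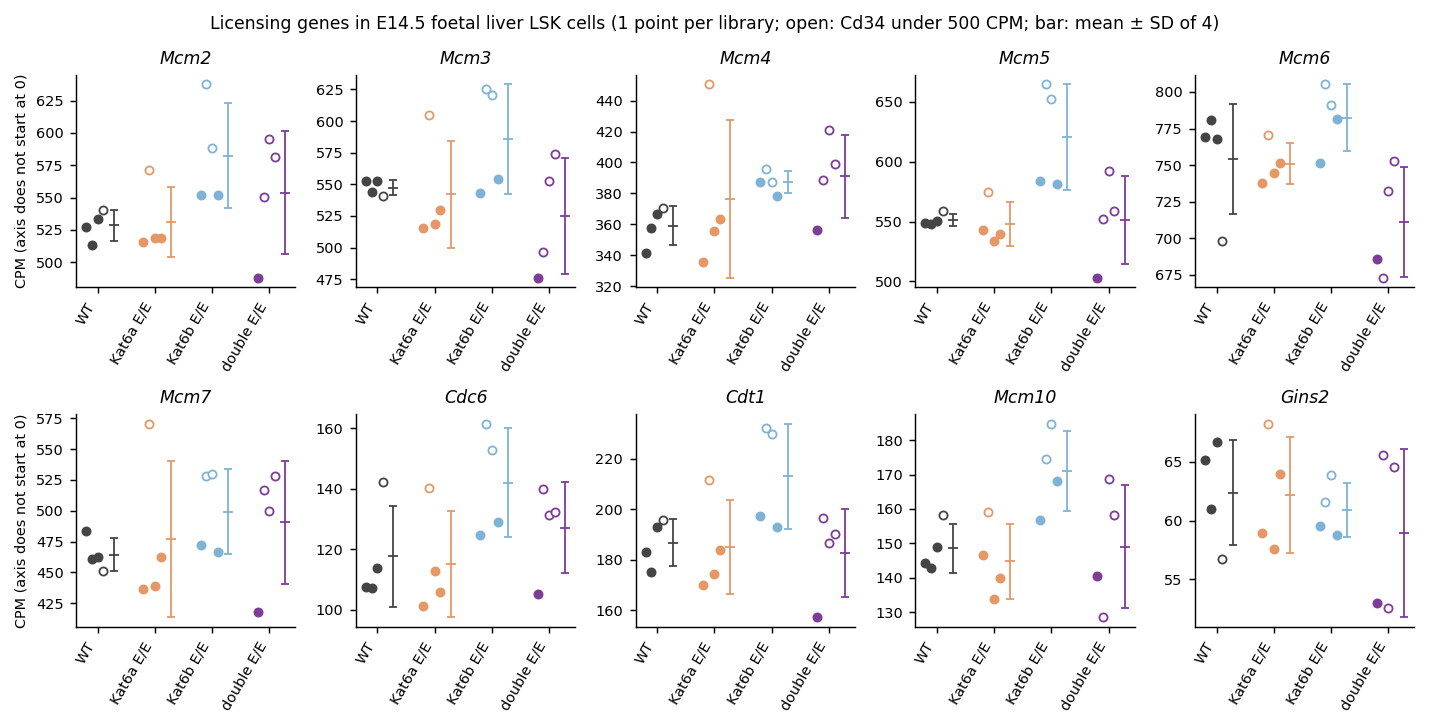
CPM of each licensing gene in every LSK library of the 4 genotypes, with mean ± SD of 4 beside the points. Open points are the 7 libraries with *Cd34* under 500 CPM, and the axes do not start at 0. For *Cdc6* the open points (131 to 162 CPM) lie above all filled points (101 to 129 CPM).

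Against WT, 0 of the 10 genes were called by limma, edgeR or DESeq2 in LSK cells of any point mutant genotype. In *Kat6a E/E* LSK cells limma called 1.36% of all genes, and 0 of the 10 genes had an unadjusted p under 0.05 (12.5% of all genes did). In *Kat6b E/E* LSK cells 2 of the 10 did, *Mcm5* and *Mcm10* (2.78% of all genes), and limma called 0% of all genes. In double point mutant LSK cells 1 did, *Cdt1* (6.85% of all genes), and limma called 0% of all genes.

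The summed RNA of the 10 genes was 4045 ± 233 CPM (SD, n = 4) in *Kat6b E/E* LSK cells and 3720.5 ± 27 CPM in WT. WT replicates 1 to 3 were littermates, so the WT spread, in this and the other LSK comparisons, is not that of 4 independent litters. *Mcm5* was at 549, 548, 550.3 and 559 CPM in WT and 584, 665, 652 and 581 CPM in *Kat6b E/E* LSK cells, without overlap (log2 fold change 0.12, 95% interval 0.0115 to 0.234, limma FDR 1). *Mcm2* and *Mcm4* were also higher without overlap, so 3 of 10 genes were, against 2.14% of all genes. Replicates 2 and 3, the highest in *Mcm5*, belong to the 7 low in *Cd34* and share a litter. *Mcm10* was at 157, 174, 185 and 168 CPM against 144, 143, 149 and 158 CPM in WT (0.15, 95% interval 0.0102 to 0.289, limma FDR 1).

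The summed RNA of the 10 genes in *Kat6a E/E* LSK cells was 4122 CPM in replicate 2, above all WT libraries (3690 to 3755 CPM). In replicates 1, 3 and 4 it was 3561, 3588 and 3659.5 CPM, below all WT libraries. For *Mcm6* and *Cdc6* replicate 2 was inside the WT range. *Mcm3* was at 515, 604, 518 and 530.0 CPM against 552, 544, 553 and 541 CPM in WT, and *Mcm7* at 437, 571, 439 and 462 CPM against 483, 461, 462 and 451 CPM. Replicate 2 is the *Kat6a E/E* library low in *Cd34*. With the model all 10 genes had log2 fold changes below 0, between -0.13 for *Cdc6* (95% interval -0.281 to 0.0172) and -0.0077 for *Mcm6* (-0.108 to 0.0931). By ratios of mean CPM 7 of the 10 were lower.

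In double point mutant LSK cells the sign depended on the model. With surrogate variables 9 of the 10 genes were below WT, and by ratios of mean CPM 4 were lower and 6 higher. *Cdt1* was at 157, 196, 187 and 190.2 CPM against 183, 175, 193 and 196 CPM in WT, overlapping, with a log2 fold change of -0.22 (95% interval -0.403 to -0.0319, limma FDR 0.649). *Cdc6* was at 105, 140.0, 131 and 132 CPM against 108, 107, 114 and 142 CPM in WT, with a log2 fold change of -0.18 (-0.408 to 0.0454).

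The double point mutant differed from *Kat6b E/E* LSK cells in *Cdt1*, the one licensing gene limma called between genotypes in LSK cells. This count varied with the model, as edgeR called 5 of the 10 genes and DESeq2 6 with surrogate variables, *Cdt1* among them both times, while 0 were called by limma or edgeR without surrogate variables, with only the libraries compared, with no filter on low counts or with all gene types. Over all genes DESeq2 also called far more than limma here (see the closing paragraph). The shares of all genes below are those of limma, and the edgeR share is not given. The counts of 5 and 6 are therefore not weighed against all genes. *Cdt1* was at 197, 232, 230 and 193 CPM in *Kat6b E/E* cells, and in the double point mutant 3 of 4 libraries, at 157, 187 and 190.2 CPM, were below all of these while replicate 2, at 196 CPM, was inside the *Kat6b E/E* range. The log2 fold change was -0.31 ± 0.0739 (SE, limma FDR 0.0461), a fall of 19.5% by the model. The log2 ratio of mean CPM was smaller, at -0.222. *Cdt1* lies on chr8:123294703-123300293 (GRCm39, plus strand, 10 exons). The 1 called gene of 10 compares with 0.926% of all genes called lower, and the 7 genes lower at an unadjusted p under 0.05 with 13.5% of all genes. The median log2 fold change was -0.17 over the 10 genes and -0.04 over all genes.

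*Mcm5* (log2 fold change -0.22, limma FDR 0.056), *Cdc6* (-0.29, limma FDR 0.0959) and *Mcm3* (-0.19, limma FDR 0.0997) came next. In the litter that held 1 fetus of each genotype, replicate 1 of both, *Cdt1* was at 157 CPM in the double point mutant and 197 CPM in *Kat6b E/E* cells (log2 ratio -0.325), and all 10 genes were lower in the double point mutant. The *Cdt1* call was lost without each of 7 of the 8 libraries in turn, all but double point mutant replicate 1 (limma FDR 0.0589 to 0.113). Without the 7 libraries low in *Cd34* its log2 fold change was -0.29 (limma FDR 0.0687), with 1 double point mutant library left.

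*Kat6a E/E* and *Kat6b E/E* LSK cells differed in 0 of the 10 genes by limma and by edgeR without surrogate variables, in 2 by edgeR with them and in 3 by DESeq2. Shares of all genes in this paragraph are those of limma, and those of edgeR and DESeq2 are not given. The counts of 2 and 3 are therefore not weighed against all genes. limma gave 4 genes an unadjusted p under 0.05, led by *Mcm10* (log2 fold change -0.21, 95% interval -0.35 to -0.0766, limma FDR 0.094), while 2.07% of all genes were called and 17.5% had an unadjusted p under 0.05. *Mcm5* was lower in every *Kat6a E/E* library, at 534 to 575 CPM against 581 to 665 CPM, the 1 gene without overlap (4.63% of all genes). Between the double point mutant and *Kat6a E/E* LSK cells 0 of 10 genes and 0% of all genes were called, with 0 of 10 at an unadjusted p under 0.05 (1.51% of all genes). The difference between the double effect and the sum of the single effects was called for 0 of 10 genes (2 at an unadjusted p under 0.05, against 4.99% of all genes) and 0% of all genes. edgeR and DESeq2 called 0 of 10 in both.

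**Figure D5:**
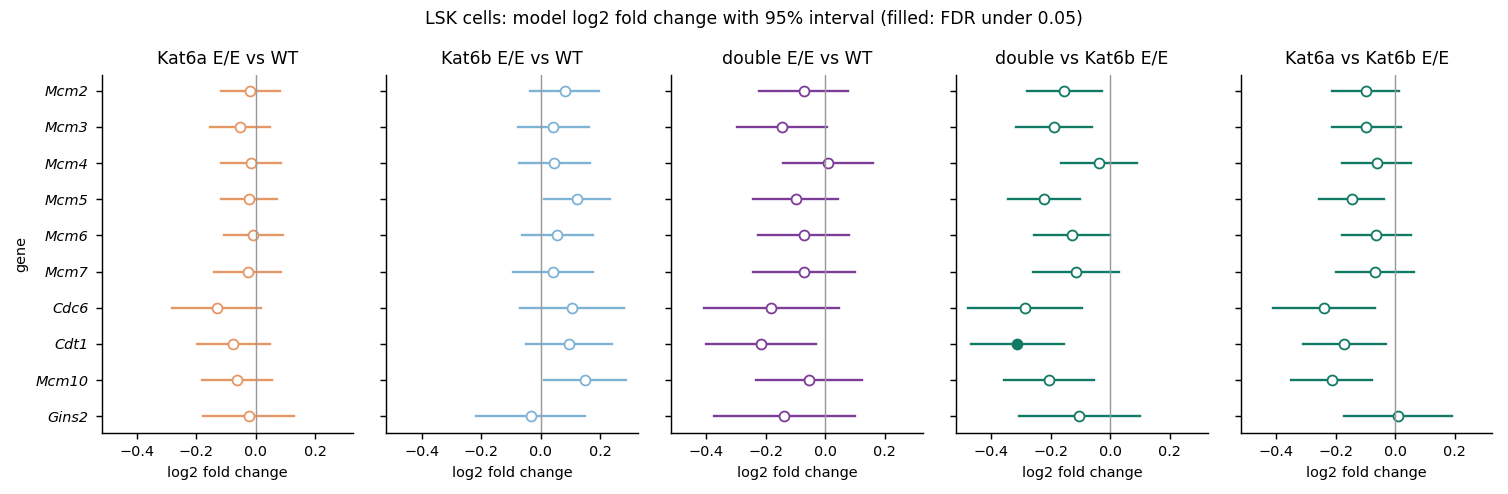
Model log2 fold change of each licensing gene in 5 comparisons of LSK cells, with 95% intervals. Filled points have a limma FDR under 0.05. The single filled point is *Cdt1* in the double point mutant against *Kat6b E/E* cells, at -0.31.

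Against WT, the 5 further lists, 95 genes in all, held 0 calls by limma or edgeR in LSK cells of each point mutant genotype. The genes with an unadjusted p under 0.05 numbered 6 in *Kat6a E/E*, 4 in *Kat6b E/E* and 5 in double point mutant cells, and DESeq2 called 1, 0 and 1. The DESeq2 calls were the D-type cyclin genes *Ccnd2* in *Kat6a E/E* (0.35, limma FDR 0.09) and *Ccnd3* in double point mutant cells (-0.29, limma FDR 0.423), named after their values were seen. Between mutant genotypes a few genes of these lists were called. In the double point mutant against *Kat6b E/E*, *Rrm2* (-0.33, limma FDR 0.0423) and *E2f4*, an E2F factor (-0.37, limma FDR 0.0413), fell. In *Kat6a E/E* against *Kat6b E/E*, *Rrm2* (-0.31, limma FDR 0.0329), *E2f4* (-0.34, limma FDR 0.0335) and the cyclin gene *Ccne1* (-0.70, limma FDR 0.0296) fell. These comparisons share the *Kat6b E/E* libraries. For the double point mutant against *Kat6b E/E*, no gene was called at the low end of the settings tried (see the closing paragraph).

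Whether a point mutation acted differently in LSK cells and embryos was tested in a joint fit of 32 libraries. For the *Kat6a* mutation, the *Kat6b* mutation and both together, 0 of the 10 genes were called by limma or edgeR, against 0.0929%, 0% and 0% of all genes. An unadjusted p under 0.05 was reached by 0, 1 and 0 of the 10 genes and by 7.88%, 2.6% and 6.51% of all genes. The largest difference at that level was *Mcm5* in *Kat6b E/E* samples, higher by 0.18 on the log2 scale in LSK cells than in embryos (95% interval 0.0359 to 0.33, limma FDR 1). *Mcm4* in the double point mutant was at 0.14 (95% interval -0.0209 to 0.293). The data thus do not show a difference between stages, and the intervals still allow differences of the size called in embryos.

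Levels of the licensing genes varied together to different degrees. Across 24 embryos the 45 pairs of genes had correlations of log2 CPM between -0.39 and 0.819 (median 0.414), and the 15 helicase pairs a median of 0.654. Across 16 LSK libraries they lay between -0.0692 and 0.898 (median 0.659), and the helicase pairs had a median of 0.732. These points share genotypes, litters, depth and, in LSK cells, the *Cd34* split, so the values are descriptions.

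The genes with levels most like the mean of the 10 were found per stage. In embryos they were *Epop* (r = 0.833, rho = 0.767 over 24 libraries), *Ppm1g* (r = 0.828, rho = 0.839), *Msh6* (r = 0.824, rho = 0.803), *Parp1* (r = 0.82, rho = 0.776) and *Desi1* (r = 0.796, rho = 0.753). In LSK cells they were *Eif3b* (r = 0.964, rho = 0.935 over 16 libraries), *Nolc1* (r = 0.945, rho = 0.929), *Hnrnpab* (r = 0.945, rho = 0.938), *Ncl* (r = 0.942, rho = 0.915) and *Tsfm* (r = 0.941, rho = 0.915). *Msh6* encodes a DNA mismatch repair protein and *Parp1* a DNA damage sensor, while *Ncl* and *Nolc1* encode nucleolar proteins and *Eif3b* a translation initiation factor. The lists of 5 shared no gene, but *Eif3b* was also 11th of the 14173 genes ranked in embryos (r = 0.77, rho = 0.75).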

How the data were processed

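RNA-sequencing libraries from 24 E9.5 embryos and 16 E14.5 LSK samples were analysed, each labelled as a separate embryo or fetus. The authors aligned read pairs to mm39 (GRCm39) with Rsubread and summarised them with featureCounts over RefSeq genes without strand information, and the deposited values are raw counts per gene for 26411 genes. Gene types were taken from a RefSeq table that matched 26359 genes, and 52 were left out.

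As in the study's methods, protein-coding genes not on the Y chromosome were filtered (filterByExpr) and TMM-normalised in edgeR (4.0.16), with 4 surrogate variables. They were fitted per stage with voomLmFit and robust empirical Bayes in limma (3.58.1; R 4.3.3), with litter as a random block. Benjamini-Hochberg adjustment covered all genes tested, 14183 in embryos, 13071 in LSK cells, 15073 in the joint fit and 14462 between WT groups, where no surrogate variables were used. Percentages of all genes beside the counts refer to these fits. Alternatives, among them DESeq2 (1.42.0) and edgeR's quasi-likelihood test, are described in the closing section. The scripts were tested on simulated data. Group counts and intervals rest on 4 samples per genotype, and depth was 8401990 counts or more per library.

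The 10 genes and the comparison lists were chosen with earlier results of these data known. All 10 genes are named in each comparison, and from each list the called genes with the smallest p, or the first 2 where none was called. For near-identical copies, 66-base stretches taken every 10 bases were searched in GRCm39 with up to 3 mismatches.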

Additional observations from a re-analysis of the deposited data

Results flagged for a closer look

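Levels of the 10 genes were checked for a library far from the other 3 of its group, over 100 combinations of gene and group, with the gap to its neighbour set over the group's range and held against Dixon's critical value. Of these, 8 stood out, and chance gives about 1 in 20. *Mcm2* was at 508.8 CPM in WT embryo 1 (others 481.2 to 485.4), at 493.5 in *Kat6a E/E* embryo 1 (478.0 to 479.8) and at 571.4 in LSK *Kat6a E/E* replicate 2 (515.7 to 518.9). *Mcm3* was at 604.5 in that same LSK library (515.4 to 530.0), which is one of the 7 low in *Cd34*. *Mcm6* was at 498.7 in *Kat6b-/-* embryo 2 (464.2 to 469.7) and at 698.4 in LSK WT replicate 4 (767.7 to 781.1), also low in *Cd34*. *Mcm7* was at 457.4 in *Kat6a E/E* embryo 1 (447.6 to 449.0), and *Mcm10* at 127.9 in *Kat6b-/-* embryo 3 (136.3 to 137.1).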

How the results depend on the processing

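Counts are of the 10 genes called. In *Kat6a-/-* against WT embryos the count was 3, and 1, *Mcm4*, with 0 surrogate variables, with edgeR without surrogate variables and with a fit of only the libraries compared. It was 2 to 3 with a library left out. In double point mutant against WT embryos the count of 3 became 6 with 6 surrogate variables and 0 with 0 of them, with edgeR without them and with only the libraries compared, and it was 1 to 3 with a library left out. In *Kat6a E/E* against *Kat6a-/-* embryos the count of 1 became 0 in these same 3 settings and ranged from 0 to 1 with a library left out. In *Kat6b-/-* and in *Kat6a E/E* against WT embryos the count of 0 became 1, *Mcm5*, with 6 surrogate variables and with DESeq2. In LSK cells, double point mutant against *Kat6b E/E*, the count of 1 ranged from 0 to 2 with a library left out and was 2 without a litter block, 3 with 2 surrogate variables, 5 with edgeR and surrogate variables and 6 with DESeq2. It was 0 with 0 surrogate variables, with edgeR without them, with no filter on low counts, with all gene types, with only the libraries compared and without the 7 libraries low in *Cd34* (added after the data were seen, with 0 surrogate variables). In *Kat6a E/E* against *Kat6b E/E* LSK cells the count of 0 became 1 without a litter block, 2 with edgeR and surrogate variables, 2 without the 7 libraries and 3 with DESeq2. No called gene changed sign. The causes were not tested.

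Replicate numbers were not treated as pairs in the main fits. In embryos, libraries with the same number had correlations of their deviations from -0.179 to 0.254 (60 pairs, 11 over 0.1). Their median was 0.0342, against -0.00936 for other pairs. In LSK cells they were from -0.382 to 0.305 (24 pairs, 7 over 0.1), with medians of -0.000204 and -0.0185. Whether replicate numbers mark a shared batch was not tested further. With a replicate block the count became 0 in *Kat6a E/E* against *Kat6a-/-* embryos and 0 in double point mutant against *Kat6b E/E* LSK cells, and other counts stayed within 1.5 times of those given.

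The number of all genes called also moved, from 375 to between 111 (0 surrogate variables) and 631 (6) in *Kat6a-/-* embryos, from 413 to between 0 and 811 in double point mutant embryos, and from 193 to between 0 and 1865 (DESeq2) in double point mutant against *Kat6b E/E* LSK cells. The 7 calls between WT LSK cells and WT embryos stayed within 7 to 8 throughout.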
